A study of Mus musculus with 4 samples.

Results

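The chemokine ligands of brain myeloid cells described here are 10 genes: Ccl2, Ccl7, Ccl12, Ccl8, Ccl9, Ccl3, Ccl4, Ccl5, Cxcl16 and Pf4. They were taken by symbol from the gene column of the deposited count tables, where each symbol matched 1 row, so they are 10 of 32227 genes. Their RNA was counted in single CD11b-positive cells of the cortex of wild-type mice at P15, by PIPseq, in 4 libraries. The 2 Hevin libraries came from mice injected into the cortex at P0 or P1 with an adeno-associated virus carrying Hevin. The 2 mCherry libraries came from mice given a virus carrying mCherry, named mCherry-CAAX in the series' text, at the same age. Hevin is the matricellular protein encoded by Sparcl1, which astrocytes secrete and which is known for promoting excitatory synapses. In both groups the GfaABC1D promoter drove the transgene in astrocytes, so the transgene was not aimed at the cells counted here, and every animal received a virus and an injection. Perfusion and dissociation of both groups were done with actinomycin D and triptolide, with anisomycin added from the dissection on, which block transcription and translation. How many animals went into each library is not in the labels, so the p-values measure the spread between these libraries, which may be technical.

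Chemokines are small secreted proteins that guide leukocytes through G-protein-coupled receptors. Ccl2, Ccl7 and Ccl12 attract monocytes through Ccr2, while mouse Ccl8 is known as a ligand of Ccr8. Ccl3 and Ccl5 act on Ccr1, as does Ccl9, a ligand found in rodents, and Ccl4 is a close relative of Ccl3. Cxcl16 is made as a membrane protein that binds Cxcr6-bearing lymphocytes and is released by the protease Adam10. Pf4, platelet factor 4, is stored in platelet granules, and its RNA is also a known mark of macrophages at the brain's borders.

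The libraries held 19855 and 13077 barcodes in the Hevin group, against 17877 and 10877 in the mCherry group, with 49781430 to 67832685 unique molecular identifiers (UMIs, 1 per captured RNA molecule) each. Cells kept had a median of 2329 and 3493.5 UMIs in the Hevin libraries, against 3350 and 4037 in the mCherry libraries, and libraries shared 1 to 7 barcodes per pair. Cells were gated into classes by summed marker UMIs, with no chemokine in a gate. Microglia-like cells, gated on genes such as P2ry12 and Tmem119, made up 30.6% and 42.4% of kept cells in the Hevin libraries, against 84.8% and 84.8% in the mCherry libraries. Apoe-high cells, gated on Apoe and Ms4a7 with few microglial and border markers, made up 47.7% and 39.8% in the Hevin libraries (9382 and 5187 cells), against 0.292% and 0.249% in the mCherry libraries (52 and 27 cells). Border-macrophage-like cells, gated on genes such as Mrc1 and Lyve1, numbered 991 and 754 in the Hevin libraries, against 1214 and 812 in the mCherry libraries. MHC class II high cells numbered 243 and 171, against 171 and 113, and endothelial-like cells 285 and 145, against 292 and 177.

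The classes were checked with marker genes that no gate used. Itgam, which encodes CD11b, stood at 414 and 533 CPM (UMI counts scaled to a common total over the library or class) in the Hevin libraries and 740 and 828 in the mCherry libraries. The summed level of Fcrls, Olfml3, Sparc and Crybb1 in microglia-like cells was 14331 and 15092 CPM in Hevin libraries and 16012 and 16636 in mCherry libraries. Stab1, Dab2 and Maf summed to 8532 and 8839 in border-macrophage-like cells of Hevin libraries and 8213 and 9049.9 in those of mCherry libraries. Apoe-high cells had 968 and 1074 CPM of Axl, Gpr65, Runx3, Cyp4f18, Klra2 and Apoc2 together in Hevin libraries and 574 and 692 in mCherry libraries, while in microglia-like cells the sum was 115 and 75.6 in Hevin libraries and 16.1 and 13.9 in mCherry libraries. P2ry12, the microglial purinergic receptor and itself a gate gene, stood at 955 and 982 CPM in Apoe-high cells of Hevin libraries and 1350.1 and 1252 in those of mCherry libraries, while microglia-like cells had 4502 and 4911 in Hevin libraries and 5480.3 and 5558 in mCherry libraries. They are called here by their leading gene, Apoe, an apolipoprotein. MHC class II high cells had 1747 and 1771 CPM of Cd209a, Itgax, Flt3 and Ccr2 together in Hevin libraries and 1747 and 1830.4 in mCherry libraries. Sparcl1 itself stood at 86.4 and 78.4 CPM in Hevin libraries and 122.9 and 91.4 in mCherry libraries, and since these libraries hold few astrocytes it is no check of the transgene.

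In the GENCODE annotation of GRCm38, the build the submitters name as mm10, 9 of the 10 genes lie on chromosome 11 and Pf4 on chromosome 5. Ccl2 (chr11:82035571-82037453), Ccl7 (chr11:82045712-82047525), Ccl12 (chr11:82101845-82103400) and Ccl8 (chr11:82115185-82116799) follow each other on the plus strand. Ccl5 (chr11:83525778-83530518), Ccl9 (chr11:83572919-83578636) and Ccl3 (chr11:83647844-83649355) are on the minus strand and Ccl4 (chr11:83662584-83664683) on the plus strand. Cxcl16 (chr11:70453983-70459984, minus strand) lies apart from them, and Pf4 is at chr5:90772435-90773383 on the plus strand. RefSeq promoter sequence was at hand for 5 of the 10 genes. The 250 bases before the start are printed for Ccl12 and Ccl8, neighbours whose levels were highest in different classes of cells, and for Ccl9 and Pf4, which moved in opposite directions, all on the gene's own strand and from GRCm38.p6:

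Ccl12, chr11:82101595-82101844: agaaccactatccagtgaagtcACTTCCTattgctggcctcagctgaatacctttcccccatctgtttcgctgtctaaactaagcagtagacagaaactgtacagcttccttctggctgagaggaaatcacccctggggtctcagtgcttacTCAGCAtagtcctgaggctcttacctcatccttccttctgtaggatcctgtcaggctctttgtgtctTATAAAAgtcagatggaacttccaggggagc

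Ccl8, chr11:82114935-82115184: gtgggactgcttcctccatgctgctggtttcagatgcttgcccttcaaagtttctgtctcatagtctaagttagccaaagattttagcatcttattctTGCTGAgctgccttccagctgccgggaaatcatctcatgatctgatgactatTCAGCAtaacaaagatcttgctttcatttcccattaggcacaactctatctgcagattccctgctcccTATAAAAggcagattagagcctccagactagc

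Ccl9, chr11:83578637-83578886: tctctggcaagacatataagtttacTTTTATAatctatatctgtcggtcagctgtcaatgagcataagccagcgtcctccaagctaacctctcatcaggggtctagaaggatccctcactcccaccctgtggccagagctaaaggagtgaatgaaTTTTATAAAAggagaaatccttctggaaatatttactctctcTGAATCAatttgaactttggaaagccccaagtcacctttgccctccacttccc

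Pf4, chr5:90772185-90772434: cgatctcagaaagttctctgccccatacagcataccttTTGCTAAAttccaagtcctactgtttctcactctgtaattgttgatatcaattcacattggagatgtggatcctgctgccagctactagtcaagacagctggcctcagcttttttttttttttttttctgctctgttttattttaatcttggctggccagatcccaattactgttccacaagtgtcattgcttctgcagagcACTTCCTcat

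Capitals mark matches on either strand to 8 motifs, and each share given is that of 32851 mouse promoter windows of the same length holding the motif. No match was found to an interferon-type motif (2.98%), a kappa-B-type motif (0.356%) and the GATA-type AGATAA (9.99%). Matches were found to the TATA box TATAAAA (4.98%), the PU.1-type AGGAAGT (7.69%), the AP-1-type TGANTCA (6.75%), the C/EBP-type TTGCNNAA (9.56%) and the MAF-type TGCTGA (16.1%). Ccl12 and Ccl8 both held TATAAAA close to the start, at 31 to 25 and 32 to 26 bases before it. Both also held TCAGCA, the MAF-type motif on the opposite strand, at 98 to 93 bases before the start in Ccl12 and 100 to 95 in Ccl8. Ccl8 held a further TGCTGA at 152 to 147, and Ccl12 held ACTTCCT, the PU.1-type motif on the opposite strand, at 228 to 222. Ccl9 held TATAAAA at 92 to 86, overlapped by TTTTATA at 95 to 89, a further TTTTATA at 225 to 219, and the AP-1-type TGAATCA at 53 to 47. Pf4 held the C/EBP-type TTGCTAAA at 212 to 205 and ACTTCCT at 10 to 4. A match of letters is no evidence that a factor bound there.

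Summed over all kept cells, RNA of Ccl12, Cxcl16, Pf4, Ccl2 and Ccl7 was higher in Hevin than in mCherry libraries, and RNA of Ccl9 was lower. Thus 6 of 10 members passed edgeR's quasi-likelihood test at an adjusted p below 0.05, with 5 higher and 1 lower, where 11.1% of all 19119 genes tested passed (6.85% higher and 4.3% lower). The spread by library is in the plot of levels over all kept cells.

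**Figure D1:**
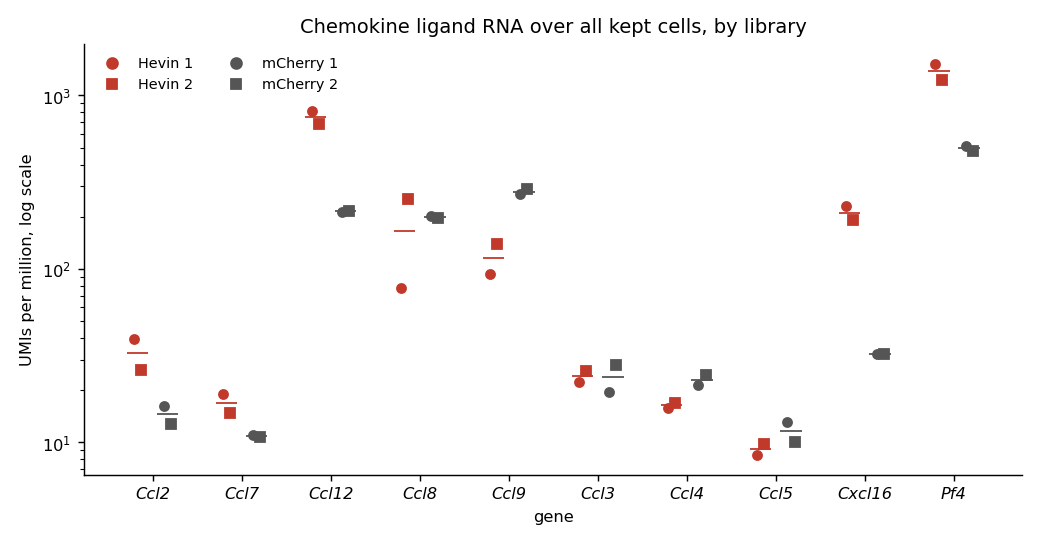
Level of each chemokine ligand over all kept cells, in CPM on a log axis, with 1 point per library and a line at the mean of each group. Hevin and mCherry libraries overlap for Ccl8 and Ccl3, while the share of all genes that overlap was not counted. The Hevin 1 point of Ccl8, at 77.6, stands apart from the other 3 libraries.

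Among the monocyte attractants, Ccl12 stood at 818 and 684 CPM in the Hevin libraries, against 213 and 217 in the mCherry libraries. Its log2 fold change was 1.92 (SE 0.115, edgeR adjusted p = 0.000235). Ccl2 stood at 39.5 and 26.1 in Hevin libraries, against 16.3 and 12.8 in mCherry libraries, a log2 fold change of 1.29 (SE 0.209, edgeR adjusted p = 0.011). Ccl7, another ligand of Ccr2, stood at 19.2 and 14.7 in Hevin libraries and 11.01 and 10.8 in mCherry libraries, a log2 fold change of 0.75 (SE 0.145, edgeR adjusted p = 0.0199), and it missed the threshold among cells with at least 3000 UMIs (0.85, edgeR adjusted p = 0.0519). For these 3 genes each Hevin library was above each mCherry library, a separation whose share over all genes was not counted. Ccl8, the next gene on the chromosome, did not pass. It stood at 77.6 and 252.8 CPM in Hevin libraries, on either side of the 200.8 and 196.4 in mCherry libraries, with a log2 fold change of -0.16 (SE 0.447, edgeR adjusted p = 0.888). The direction for Ccl8 depended on which Hevin library was used, since it was 0.46 without Hevin replicate 1 and -1.23 without Hevin replicate 2. These fits have 1 Hevin library each, so only their values are given.

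Among Ccl9, Ccl3, Ccl4 and Ccl5, Ccl9 was the member that fell. It stood at 93.1 and 139.8 CPM in Hevin libraries, against 269.5 and 288.1 in mCherry libraries, a log2 fold change of -1.15 (SE 0.172, edgeR adjusted p = 0.00846). Ccl3 stood at 22.3 and 25.7 in Hevin libraries and at 19.7 and 27.8 in mCherry libraries, with no difference beyond the spread (log2 fold change 0.14, SE 0.166, edgeR adjusted p = 0.711). Ccl4 stood at 15.8 and 17.0 in Hevin libraries and at 21.4 and 24.4 in mCherry libraries, and missed the threshold (log2 fold change -0.37, SE 0.104, edgeR adjusted p = 0.0716). Over 13 alternatives its value was -0.68 to -0.23, among them -0.47 without mCherry replicate 1. Ccl5 stood at 8.45 and 9.84 in Hevin libraries and at 13.1 and 10.1 in mCherry libraries (log2 fold change -0.23, SE 0.15, edgeR adjusted p = 0.439).

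Cxcl16, the membrane-bound ligand, had the largest log2 fold change of the 10 genes. It stood at 229.6 and 192 CPM in Hevin libraries, against 32.5 and 32.3 in mCherry libraries, a log2 fold change of 2.82 (SE 0.108, edgeR adjusted p = 4.23e-05). Cxcl16 overlaps Zmynd15 on the opposite strand over 552 bp. Whether counting used strand is not given in the sources used here, so reads of the pair in that stretch may not be told apart. Zmynd15 was listed with 1049 and 808 UMIs in Hevin libraries and 130 and 120 in mCherry libraries, against 12696 and 10094, and 2202 and 1601, for Cxcl16. Ccl2 lies wholly within Gm17268 on the opposite strand, which had 79 and 54 UMIs in Hevin libraries and 44 and 34 in mCherry libraries. Pf4 stood at 1528 and 1224 CPM in Hevin libraries, against 514.7 and 478.3 in mCherry libraries, a log2 fold change of 1.59 (SE 0.131, edgeR adjusted p = 0.000866).

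The cells that held this RNA differed between the groups, as the plot of UMI shares by class shows. In the Hevin libraries, Apoe-high cells held 81.2% and 78.6% of all Cxcl16 UMIs, while in the mCherry libraries they held 2.18% and 2.31%. For Ccl12 the Apoe-high share was 75.6% and 70.2% in Hevin libraries and 3.42% and 2.97% in mCherry libraries. For Pf4 it was 68.7% and 62.2% in Hevin libraries and 0.64% and 0.619% in mCherry libraries, where border-macrophage-like cells held 75.7% and 82.0%. Ccl2 was split likewise, with 60.6% and 58.8% of its UMIs in Apoe-high cells of Hevin libraries and 0.454% and 0.472% in those of mCherry libraries. Set beside the Apoe-high share of all UMIs, 52.1% and 40.6% in Hevin libraries and 0.329% and 0.274% in mCherry libraries, the shares of Ccl12, Cxcl16, Pf4 and Ccl2 were larger in each of the 4 libraries.

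**Figure D2:**
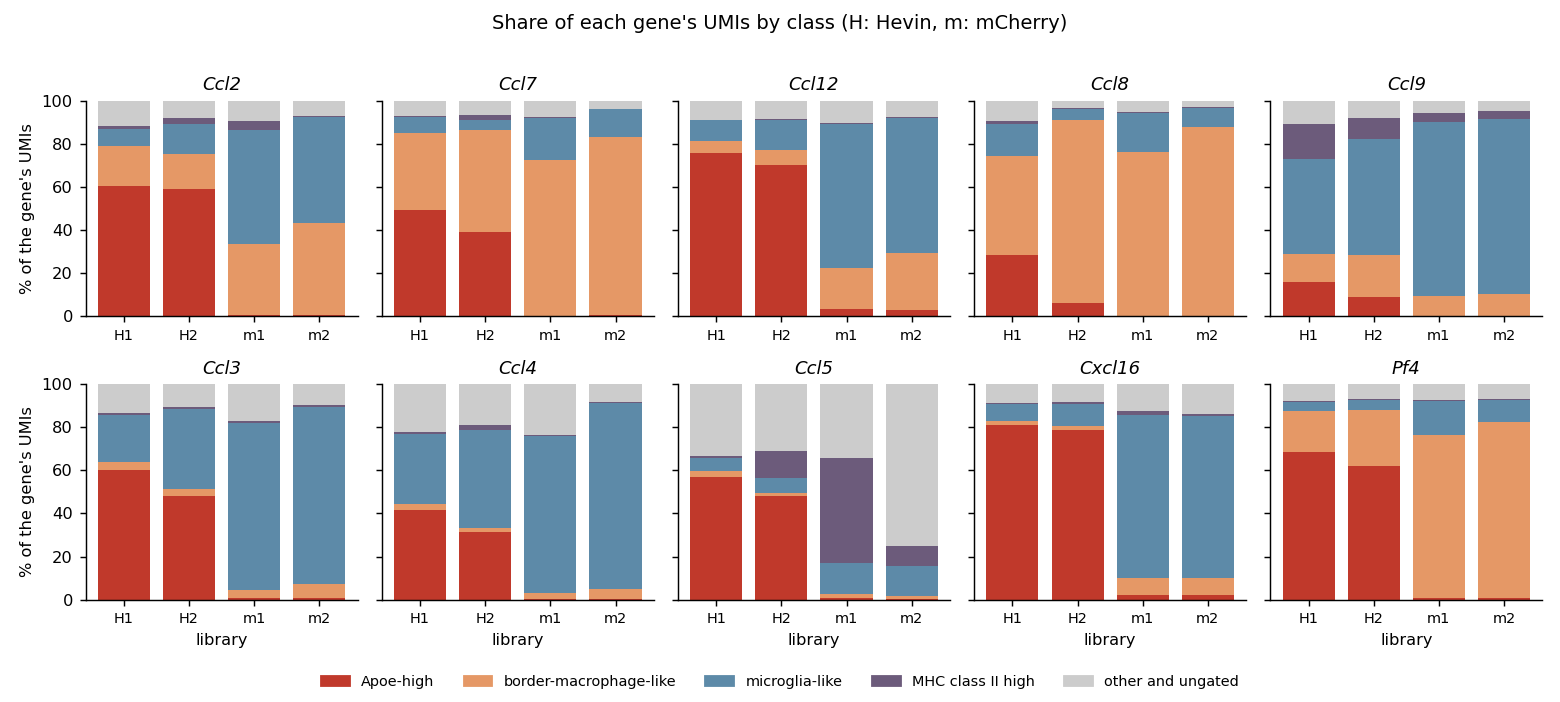
Share of each gene's UMIs held by each class of cells, in percent, with 1 stacked bar per library (H1 and H2, Hevin libraries; m1 and m2, mCherry libraries). Apoe-high cells hold 81.2% and 78.6% of Cxcl16 in H1 and H2, against 2.18% and 2.31% in m1 and m2, while border-macrophage-like cells hold 45.8% and 85.4% of Ccl8 in H1 and H2, against 76.2% and 87.6% in m1 and m2.

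Ccl8 and Ccl7 lay elsewhere. Border-macrophage-like cells were at most 7.48% of the cells of a library, yet held 45.8% and 85.4% of Ccl8 in Hevin libraries and 76.2% and 87.6% in mCherry libraries. They held 35.6% and 47.1% of Ccl7 in Hevin libraries and 72.5% and 82.8% in mCherry libraries. Microglia-like cells held most of Ccl9 in mCherry libraries, where their share was 80.9% and 81.0%, against 44.1% and 53.8% in Hevin libraries. They held 77.9% and 82.4% of Ccl3 and 73.0% and 86.6% of Ccl4 in mCherry libraries, against 21.9% and 37.5% of Ccl3 and 32.4% and 45.9% of Ccl4 in Hevin libraries. The microglia-like share of all UMIs was 25.4% and 37.7% in Hevin libraries and 78.8% and 79.4% in mCherry libraries, so the shares of Ccl3 in all 4 libraries, and that of Ccl9 in mCherry libraries, lay near the share of all RNA that these cells held.

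When the Apoe-high cells were left out of the sums, an alternative chosen after seeing the data, Ccl12, Cxcl16 and Pf4 passed, all higher. The share of all genes that passed in this fit is not given here, so no count is read against it. Ccl2 (log2 fold change 0.81, edgeR adjusted p = 0.263), Ccl7 (0.71, edgeR adjusted p = 0.103) and Ccl9 (-0.55, edgeR adjusted p = 0.158) kept their signs without passing. In sums over all cells, more cells of a class and more RNA per cell cannot be told apart.

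The classes differed in which ligands they carried, as the plot of levels by class and library shows. Compared with microglia-like cells in a fit over class sums with the library as a block, Apoe-high cells had 7 members higher and 2 lower, and 39.5% of all 14370 genes tested passed (20% higher and 19.5% lower). Border-macrophage-like cells against microglia-like cells had 6 members higher and 2 lower, where 59.8% of all genes passed (29.3% higher and 30.5% lower). Apoe-high cells against border-macrophage-like cells had 5 higher and 5 lower, where 45.6% passed (22.7% higher and 22.9% lower). With backgrounds this high, the counts say less than the sizes.

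**Figure D3:**
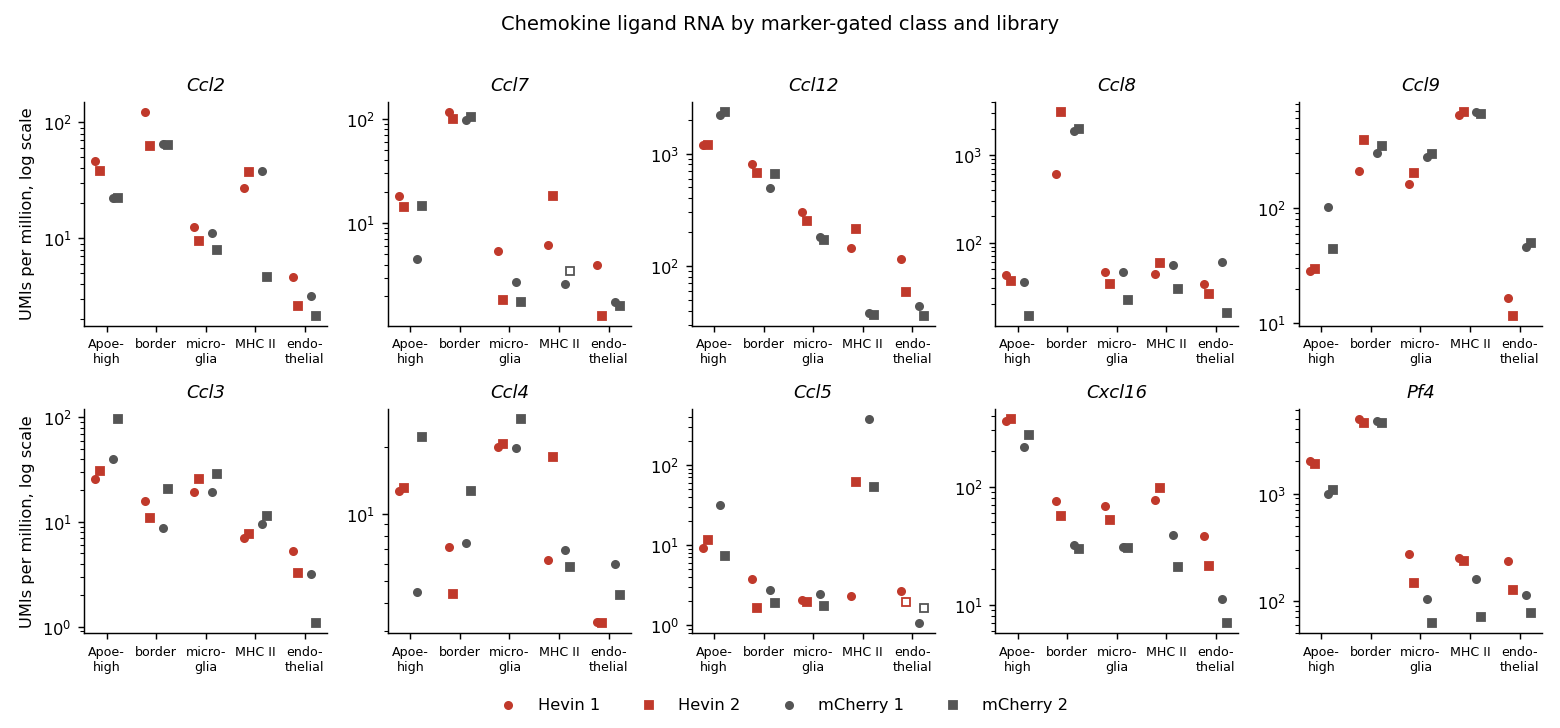
Level of each gene by class of cells, in CPM on a log axis, with 1 point per library (Hevin red, mCherry grey; open points are listed at 0 and are drawn at the limit that a count of 0 allows). Ccl8, Ccl7 and Pf4 are highest in border-macrophage-like cells, Ccl12 and Cxcl16 in Apoe-high cells, and Ccl9 in MHC class II high cells.

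Ccl12 and Cxcl16 were highest in Apoe-high cells. Ccl12 stood at 1188 and 1183 CPM in Apoe-high cells of Hevin libraries and 2211 and 2357 in those of mCherry libraries, while in microglia-like cells it stood at 304 and 253 in Hevin libraries and 182 and 172 in mCherry libraries. The log2 difference, Apoe-high over microglia-like, was 2.86 (SE 0.202, edgeR adjusted p = 3.33e-10), and over border-macrophage-like cells it was 1.46 (SE 0.198, edgeR adjusted p = 3.91e-06). Border-macrophage-like cells had 816 and 678 in Hevin libraries and 492 and 662 in mCherry libraries, so the gap was smaller in Hevin libraries. The mCherry side of the Apoe-high class rests on 52 and 27 cells. In each of these sets a single cell held much of the Ccl12, 47.9% and 22.8% of its UMIs. Cxcl16 stood at 358 and 372 in Apoe-high cells of Hevin libraries and 215 and 273 in those of mCherry libraries. In microglia-like cells it stood at 69.0 and 52.1 in Hevin libraries and 31.1 and 30.5 in mCherry libraries, a log2 difference of 2.72 (SE 0.0866, edgeR adjusted p = 2.65e-14). In border-macrophage-like cells it was near the microglia-like level, at 75.1 and 56.4 in Hevin libraries and 32.0 and 29.5 in mCherry libraries, and the difference between those classes was -0.08 (SE 0.0876, edgeR adjusted p = 0.463). That value changed sign to 0.07 when libraries were scaled by total counts.

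Pf4, Ccl8, Ccl7 and Ccl2 were highest in border-macrophage-like cells. Pf4 stood at 4927 and 4563 CPM there in Hevin libraries and 4767 and 4556 in mCherry libraries, which overlap. Apoe-high cells were below, at 2016 and 1878 in Hevin libraries and 1000.2 and 1083 in mCherry libraries (log2 difference -1.55, SE 0.206, edgeR adjusted p = 3.09e-06). Ccl8 stood at 609.6, 3109, 1873 and 1999 in border-macrophage-like cells of Hevin replicates 1 and 2 and mCherry replicates 1 and 2, and at 14.7 to 46.5 in Apoe-high and microglia-like cells of any library. Its log2 difference, border-macrophage-like over microglia-like, was 5.49 (SE 0.334, edgeR adjusted p = 9.85e-12). Ccl7 stood at 117 and 99.96 in border-macrophage-like cells of Hevin libraries and 97.6 and 103.9 in those of mCherry libraries, 5.14 above microglia-like cells on the log2 scale (SE 0.139, edgeR adjusted p = 3.00e-17). For Ccl2 the same difference was 2.73 (SE 0.105, edgeR adjusted p = 6.26e-15), and Apoe-high cells lay between, 1.91 above microglia-like cells (SE 0.121, edgeR adjusted p = 6.21e-11).

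Ccl9 was lower in Apoe-high than in microglia-like cells. It stood at 28.2 and 29.8 CPM in Apoe-high cells of Hevin libraries and 103.2 and 44.2 in those of mCherry libraries, while in microglia-like cells it stood at 162 and 199.8 in Hevin libraries and 277 and 294 in mCherry libraries. The log2 difference was -2.60 (SE 0.167, edgeR adjusted p = 8.17e-11). In MHC class II high cells Ccl9 stood at 642 and 686 in Hevin libraries and 686 and 658 in mCherry libraries. Its log2 difference of border-macrophage-like over microglia-like cells was 0.29 (SE 0.119, edgeR adjusted p = 0.0401), but it did not pass without Hevin replicate 2 (0.09, edgeR adjusted p = 0.434) or without the library block (0.29, edgeR adjusted p = 0.266). The log2 difference of Ccl4 was -0.55 in Apoe-high over microglia-like cells (SE 0.118, edgeR adjusted p = 0.000748), but 0.36 under stricter gates (edgeR adjusted p = 0.161). Ccl3 was higher in Apoe-high than in microglia-like cells by 0.47 (SE 0.123, edgeR adjusted p = 0.00383; 0.129 without the library block) and lower in border-macrophage-like than in microglia-like cells by a log2 difference of -0.91 (SE 0.141, edgeR adjusted p = 1.10e-05). Ccl5 was 2.55 higher in Apoe-high than in microglia-like cells (SE 0.223, edgeR adjusted p = 8.20e-09), at 9.28 and 11.7 in Hevin libraries and 31.4 and 7.37 in mCherry libraries, where it rested on 7 and 1 UMIs.

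Free RNA in droplet data can give a gene UMIs in cells that do not make it. Endothelial-like cells were set beside the microglia-like ones for this, a comparison added after seeing the data. They were taken to make little of most of these ligands, which was not tested. Ccl2, Ccl12, Ccl3, Ccl4, Ccl9 and Cxcl16 were higher in microglia-like cells, 6 of 10 members, where 66.6% of all 14126 genes tested passed (34.6% higher). Pf4 stood at 272.8 and 146.2 CPM in microglia-like cells of Hevin libraries and 104.4 and 61.8 in those of mCherry libraries. In endothelial-like cells it stood at 237 and 125 in Hevin libraries and 112 and 76.6 in mCherry libraries. The difference was 0.14 on the log2 scale (SE 0.0925, edgeR adjusted p = 0.214), and it was 0.36 in Hevin libraries alone (edgeR adjusted p = 0.0337). Ccl8 (0.22, SE 0.156, edgeR adjusted p = 0.231), Ccl7 (0.56, SE 0.314, edgeR adjusted p = 0.14) and Ccl5 (1.35, SE 0.634, edgeR adjusted p = 0.0872) likewise missed the threshold. For Ccl8 the difference was 0.58 without mCherry replicate 1 (edgeR adjusted p = 0.00242), and for Ccl5 it was 2.28 without Hevin replicate 1 (edgeR adjusted p = 0.0321).

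Shares of cells with a UMI were compared after each cell was thinned to 1000 UMIs. In border-macrophage-like cells, 95.9% and 94.3% had a Pf4 UMI in Hevin libraries and 95.3% and 95.7% in mCherry libraries. The Pf4 share was 80.3% and 76.8% in Apoe-high cells of Hevin libraries and 53.8% and 66.7% in those of mCherry libraries. In endothelial-like cells it was 21.2% and 12.4% in Hevin libraries and 10.6% and 9.04% in mCherry libraries, and in microglia-like cells 23.8% and 13.3% in Hevin libraries and 10.1% and 5.89% in mCherry libraries, close to the endothelial-like shares. For Cxcl16 the share was 28.7% and 28.2% in Apoe-high cells of Hevin libraries and 21.2% and 22.2% in those of mCherry libraries, and in endothelial-like cells 4.95% and 2.76% in Hevin libraries and 0.685% and 0.565% in mCherry libraries. Without thinning the Pf4 share was 94.2% and 96.5% in Apoe-high cells of Hevin libraries and 78.8% and 85.2% in those of mCherry libraries, and 63.2% and 57.9%, against 49.3% and 36.2%, in endothelial-like cells. Before thinning, endothelial-like cells had medians of 3733 and 5820 UMIs in Hevin libraries and 5778 and 6229 in mCherry libraries, and Apoe-high cells had 2628 and 3595, against 3505 and 4258. Thinning left out 121 Apoe-high, 88 microglia-like, 15 border-macrophage-like and 2 endothelial-like cells of Hevin replicate 1 and none of these classes elsewhere.

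Within microglia-like cells no member passed the edgeR test between Hevin and mCherry libraries. None of 16982 genes did, so the share passing was 0%, while 906 genes and 4 members had an unadjusted p below 0.05, and DESeq2 called 112 genes and 3 members. The 4 members were Cxcl16 at 1.02 (SE 0.132, edgeR adjusted p = 0.115), Ccl12 at 0.70 (SE 0.0989, edgeR adjusted p = 0.136), Ccl9 at -0.61 (SE 0.112, edgeR adjusted p = 0.247) and Pf4 at 1.38 (SE 0.334, edgeR adjusted p = 0.482) on the log2 scale. Pf4 in these cells lay near the endothelial-like level, as given above. Fits with a library left out leave 1 library in a group, so only their log2 fold changes are given. Without mCherry replicate 1 Cxcl16 was at 1.03, Ccl12 at 0.74, Ccl9 at -0.66, Pf4 at 1.80 and Ccl8 at 0.87. Without Hevin replicate 2, Cxcl16 was at 1.22 and Ccl12 at 0.84, and without mCherry replicate 2 Cxcl16 was at 1.01. Apoe, the gate gene of the Apoe-high cells, moved with these values, at 4704 and 3273 CPM in microglia-like cells of Hevin libraries and 1540 and 1283 in those of mCherry libraries. In endothelial-like cells Apoe stood at 3675 and 2195 in Hevin libraries, against 965 and 665 in mCherry libraries. Its part in the differences was not tested.

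**Figure D4:**
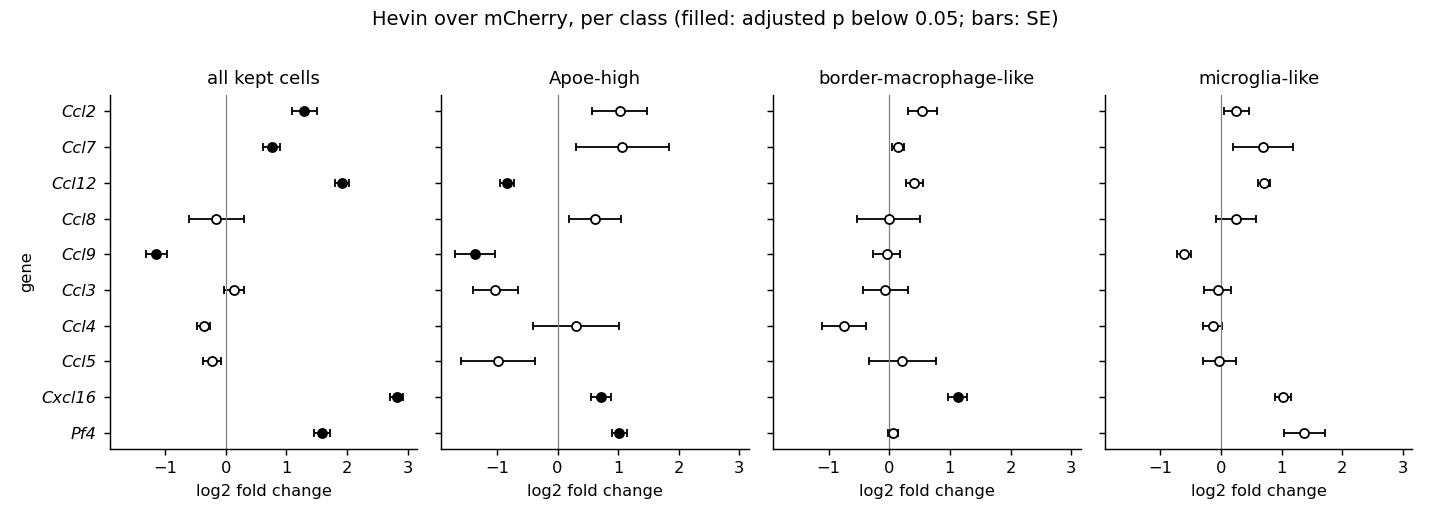
Log2 fold change of each gene, Hevin over mCherry, with its standard error, in all kept cells and in 3 classes; filled points passed the edgeR test at an adjusted p below 0.05. Ccl12 is higher over all cells at 1.92 but lower within Apoe-high cells at -0.84, and no point is filled in microglia-like cells. Without its richest cell in each library the Apoe-high value is -0.21 and does not pass, a setting that lowers the small mCherry side more.

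In border-macrophage-like cells Cxcl16 was the member that passed, 1 of 10, where 0.37% of all 12166 genes tested passed (0.132% higher). It stood at 75.1 and 56.4 CPM in Hevin libraries, against 32.0 and 29.5 in mCherry libraries, a log2 fold change of 1.13 (SE 0.152, edgeR adjusted p = 0.0141). Pf4 did not differ beyond its spread there, with a log2 fold change of 0.07 (SE 0.0816, edgeR adjusted p = 0.927). Fits with a library left out leave 1 library in a group, so only their values are given here too. Without Hevin replicate 2 these were 0.97 for Ccl2, -1.62 for Ccl8, 0.55 for Ccl12 and -0.56 for Ccl9. Ccl8 went the other way without Hevin replicate 1, at 0.74, and Ccl12 was at 0.65 without mCherry replicate 2. An interaction term asked whether the Hevin effect was another in border-macrophage-like than in microglia-like cells. No member passed, against 0.291% of 14100 genes, with 842 genes and 2 members at an unadjusted edgeR p below 0.05. Pf4 came nearest, at -1.30 (SE 0.24, edgeR adjusted p = 0.0539). Its value was -1.72 without Hevin replicate 2, -1.66 without mCherry replicate 1 and -0.94 without mCherry replicate 2. Pf4 in microglia-like cells was 1.15 and 1.17 times the endothelial-like level in Hevin libraries and 0.931 and 0.806 times in mCherry libraries. The part of free RNA in this value was not tested. Ccl8 was at -2.20 without Hevin replicate 2 and at -1.34 without mCherry replicate 1, and Ccl9 at 0.80 without Hevin replicate 1.

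Within Apoe-high cells 4 members passed, 2 higher and 2 lower, where 0.727% of all 13623 genes tested passed (0.25% higher and 0.477% lower) and the median log2 fold change of all genes was 0.147. The mCherry side rests on 52 and 27 cells. Markers of other classes moved with this comparison. The 4 microglial genes that no gate used summed to 3854 and 3815 CPM in Apoe-high cells of Hevin libraries and 6549 and 5605 in those of mCherry libraries, and the 4 MHC class II gate genes to 297 and 218 in Hevin libraries and 525 and 457 in mCherry libraries. Their part in the differences was not tested. Pf4 was higher, at 2016 and 1878 CPM in Hevin libraries against 1000.2 and 1083 in mCherry libraries (log2 fold change 1.01, SE 0.124, edgeR adjusted p = 1.15e-05). Cxcl16 was higher, at 358 and 372 in Hevin libraries against 215 and 273 in mCherry libraries (0.72, SE 0.166, edgeR adjusted p = 0.0299). Ccl12 was lower, at 1188 and 1183 in Hevin libraries against 2211 and 2357 in mCherry libraries (log2 fold change -0.84, SE 0.117, edgeR adjusted p = 7.04e-05). A cell of mCherry replicate 1 held 47.9% of its Ccl12 UMIs, 236 of 493. Without the richest cell of each library the levels were 1183 and 1177 in Hevin libraries and 1209 and 1878 in mCherry libraries, an alternative chosen after seeing the data. With the UMIs of each member's richest cells taken off, Ccl12 no longer passed (-0.21, SE 0.146, edgeR adjusted p = 0.689). This takes 1 cell per library, from 52 and 27 in mCherry libraries but from 9382 and 5187 in Hevin libraries. It thus lowers the mCherry side more, and Pf4 and Cxcl16 also moved up, to 1.16 and 0.96. It is therefore no even test of the Ccl12 difference. Ccl9 was lower, at 28.2 and 29.8 in Hevin libraries against 103.2 and 44.2 in mCherry libraries, from 23 and 6 UMIs there (-1.36, SE 0.325, edgeR adjusted p = 0.0382; without the richest cells -1.21, 0.123). In endothelial-like cells Ccl9 stood at 16.5 and 11.7 in Hevin libraries against 46.2 and 50.2 in mCherry libraries, so the level of Apoe-high cells in mCherry replicate 2 was below that of endothelial-like cells.

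How far these calls hang on single libraries cannot be tested, since leaving out a library leaves 1 in a group. Without Hevin replicate 2 Pf4 was at 0.99, Cxcl16 at 0.62, Ccl12 at -0.91 and Ccl9 at -1.42. Cxcl16 was at 0.64 without Hevin replicate 1 and at 0.56 without mCherry replicate 1, and Ccl9 at -1.38 and -0.47. With RLE size factors Cxcl16 at 0.64 (edgeR adjusted p = 0.124) and Ccl9 at -1.44 (0.0536) missed the threshold, and Cxcl16 did under total-count scaling at 0.61 (0.0699). The 2 small mCherry sets were unlike in other genes too. Ccr2, the receptor of Ccl2, stood at 5.07 and 6.28 CPM in Apoe-high cells of Hevin libraries and at 107.6 and 0 in those of mCherry libraries, where a count of 0 allows up to 22.1 CPM (counting error only). Cxcl10, an interferon-induced ligand, stood at 24.4 and 12.8 in Hevin libraries and at 323 and 73.7 in mCherry libraries. The other 6 members had 1 to 13 UMIs each in Apoe-high cells of an mCherry library and did not pass, with Ccl3 at -1.03 (SE 0.369, edgeR adjusted p = 0.32).

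In MHC class II high cells 8 members could be tested and 3 passed, all higher, where 0.519% of all 9054 genes tested passed (0.11% higher and 0.409% lower). Ccl12 stood at 145 and 213.7 CPM in Hevin libraries, against 38.0 and 36.9 in mCherry libraries, a log2 fold change of 2.31 (SE 0.207, edgeR adjusted p = 1.73e-05). Cxcl16 stood at 77.5 and 98.3 in Hevin libraries against 38.9 and 20.7 in mCherry libraries (1.56, SE 0.248, edgeR adjusted p = 0.00358). Pf4 stood at 252 and 236.6 in Hevin libraries against 159 and 70.3 in mCherry libraries (1.12, SE 0.229, edgeR adjusted p = 0.0324). Without mCherry replicate 2, which leaves 1 mCherry library, Ccl12 was at 2.28, Cxcl16 at 1.22 and Pf4 at 0.68. Without the 5% of barcodes with most UMIs Cxcl16 at 1.58 (edgeR adjusted p = 0.112) and Pf4 at 1.34 (0.056) missed the threshold, and Pf4 did under stricter gates at 0.96 (0.0682). Endothelial-like cells of the same libraries had Ccl12 at 115 and 59.0 in Hevin libraries against 44.1 and 36.1 in mCherry libraries, and Cxcl16 at 38.2 and 21.4 against 11.3 and 7.01. Apoe in MHC class II high cells stood at 4337 and 3098 in Hevin libraries against 1453 and 919.8 in mCherry libraries. The part of free RNA was not tested. Ccl5 was carried by few cells, at 2.33 (from 3 UMIs) and 61.0 in Hevin libraries against 371.8 and 53.0 in mCherry libraries, and did not pass (-2.85, SE 0.701, edgeR adjusted p = 0.107). A single cell held 36 of 64 Ccl5 UMIs in Hevin replicate 2, 261 of 430 in mCherry replicate 1 and all 46 in mCherry replicate 2. Without the richest cells the Ccl5 value was -2.52 (edgeR adjusted p = 0.431). With a library left out, which leaves 1 library in a group, it was -6.41 without Hevin replicate 2 and -1.81 without Hevin replicate 1. Ccl2 was at 2.84 without mCherry replicate 1.

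The Hevin effects in MHC class II high and in Apoe-high cells were set against each other in an interaction test added after seeing their values. Ccl12 and Ccl9 passed, 2 of 10 members, both with a larger value in MHC class II high cells, where 0.348% of all 8908 genes tested passed (0.247% higher and 0.101% lower). For Ccl12 the difference was 3.20 on the log2 scale (SE 0.201, edgeR adjusted p = 3.86e-10), and for Ccl9 it was 1.48 (SE 0.329, edgeR adjusted p = 0.045). The Apoe-high side of both rests on the 52 and 27 cells of the mCherry libraries, and the richest cell of mCherry replicate 1 held 47.9% of its Ccl12. Without the richest cells the Ccl12 difference was 2.49 (SE 0.225, edgeR adjusted p = 4.9e-07), and it was 2.91 to 3.51 with a library left out. Taking off 1 cell per library weighs more on these small mCherry sets than on the larger Hevin ones. The mCherry level of Ccl12 in MHC class II high cells, 38.0 and 36.9 CPM, was near the 44.1 and 36.1 of endothelial-like cells. Whether endothelial-like cells make the gene was not tested. The Ccl9 difference did not pass without the richest cells (1.33, edgeR adjusted p = 0.135). With a library left out, which leaves 1 library in a group, it was 0.71 to 1.80.

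In endothelial-like cells 5 members could be tested, and Ccl9 passed as lower, where 0.376% of all 10626 genes tested passed (0.188% lower). It stood at 16.5 and 11.7 CPM in Hevin libraries, against 46.2 and 50.2 in mCherry libraries (log2 fold change -1.72, SE 0.243, edgeR adjusted p = 0.00499). Without the 5% of barcodes with most UMIs it did not pass (-1.48, edgeR adjusted p = 0.325). Cxcl16 at 1.70 (SE 0.344, edgeR adjusted p = 0.0504), Ccl12 at 1.15 (SE 0.261, edgeR adjusted p = 0.0916) and Pf4 at 0.98 (SE 0.249, edgeR adjusted p = 0.159) did not pass. Without Hevin replicate 2 these 3 were at 2.08, 1.57 and 1.38, and without mCherry replicate 1 at 2.13, 1.32 and 1.30. Without mCherry replicate 2 Cxcl16 was at 1.44, Ccl12 at 1.02 and Ccl8 at -0.98.

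Ccl8 RNA lay in a small part of the border-macrophage-like cells. Cells with 10 or more Ccl8 UMIs numbered 39 and 97 in Hevin libraries, or 3.94% and 12.9% of the class, and 97 and 91 in mCherry libraries, or 7.99% and 11.2%. They held 70.0% and 95.5% of the class's Ccl8 UMIs in Hevin libraries and 93.7% and 95.3% in mCherry libraries. Hevin replicate 1, with the lowest Ccl8 level, thus also had the smallest share of such cells. These cells were deeper than the rest, with medians of 3755 and 6725 UMIs against 2890 and 4181 for cells with fewer Ccl8 UMIs in Hevin libraries, and 7071 and 6316 against 3962 and 4576 in mCherry libraries.

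Cells rich in Ccl8 had another mix of ligands, as the plot of border-macrophage-like cells split by Ccl8 shows. Pf4 stood at 2922 and 2155 CPM in them in Hevin libraries and 2390 and 2678 in mCherry libraries, while in the other cells of the class it stood at 5022 and 5122 in Hevin libraries and 5108 and 4887 in mCherry libraries. Ccl9 stood at 432 and 744 in the cells rich in Ccl8 of Hevin libraries and 592 and 657 in those of mCherry libraries, while in the other cells it stood at 201 and 312, and 257 and 292. For Ccl6, another ligand of Ccr1, the values were 1070.1 and 2129, and 1596 and 1564, while the other cells had 167 and 222, and 203 and 240.1. In each of the 4 libraries Ccl9 and Ccl6 were higher and Pf4, Ccl12 and Stab1 lower in the cells rich in Ccl8. The gate genes of the class went both ways. Mrc1, the mannose receptor, was at 4191 and 4484, and 4291 and 4655, where the other cells had 5003 and 5694, and 4986 and 5516. Lyve1 was also lower in each library. F13a1 was higher in each, at 3354 and 3704, and 3410 and 3585, where the other cells had 2696 and 3130, and 2561 and 2840. Cbr2 was higher in each library too, and Cd163 in all but mCherry replicate 1. The split was made on Ccl8 after seeing the data and carries no test.

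**Figure D5:**
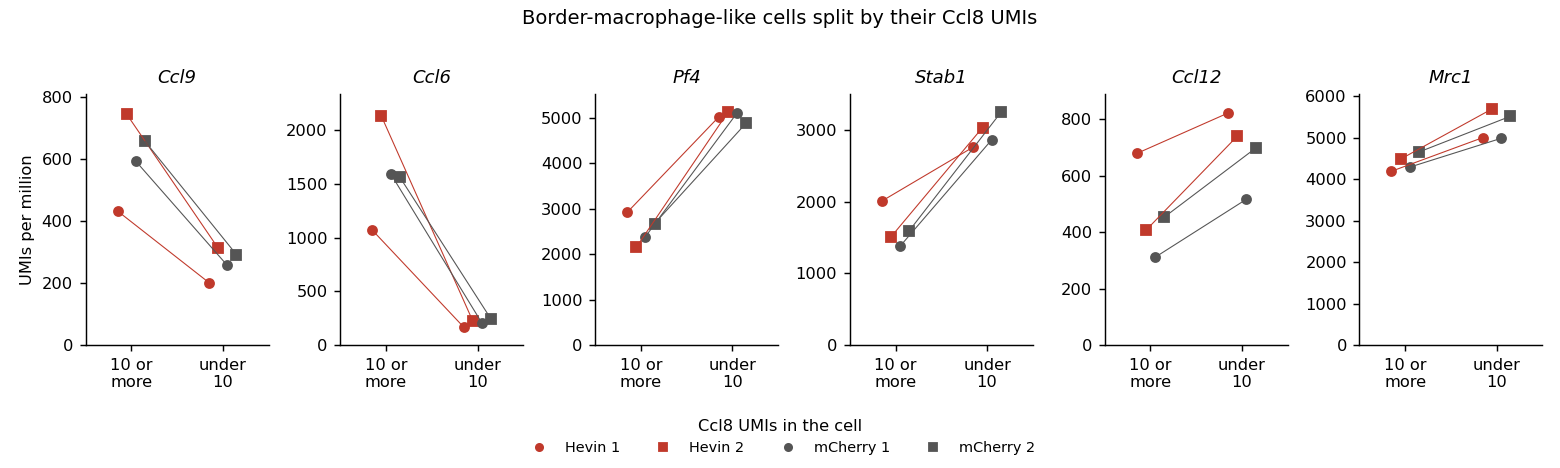
Levels of 6 genes in border-macrophage-like cells with 10 or more Ccl8 UMIs and in those with fewer, in CPM, with 1 line per library. In every library Ccl9 and Ccl6 are higher and Pf4, Stab1, Ccl12 and Mrc1 lower in the cells rich in Ccl8.

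Ccl3 and Ccl4 shared cells within microglia-like cells. Of microglia-like cells with 3 or more Ccl3 UMIs, 66.7% and 50% of 12 and 30 cells in Hevin libraries had a Ccl4 UMI, and 58.5% and 45.6% of 65 and 68 cells in mCherry libraries. Among the other microglia-like cells it was 1.58% and 2.46%, against 3.07% and 3.84%. Ccl2 and Ccl7 shared border-macrophage-like cells in the same way. Of those with 3 or more Ccl2 UMIs, 73.8% and 53.3% of 42 and 15 cells in Hevin libraries had a Ccl7 UMI, and 86.1% and 71.4% of 36 and 28 cells in mCherry libraries, where other cells had 14.9% and 24.0%, and 21.5% and 25.3%. In Apoe-high cells of Hevin libraries 41.6% and 38.3% of cells with 3 or more Ccl2 UMIs had a Ccl7 UMI, against 3.50% and 3.85% of the others. These cells had a higher median UMI total than the others in every set but the Ccl3 set of mCherry replicate 1 and the Ccl2 set of Hevin replicate 2 in border-macrophage-like cells.

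Ccl5 RNA lay in few cells. Cells with 10 or more Ccl5 UMIs numbered 6 and 10 in Hevin libraries and 9 and 5 in mCherry libraries, and held 42.6% and 51.1%, and 81.1% and 87.8%, of the gene's UMIs. A cell of mCherry replicate 2 alone held 357 UMIs, 71.1% of its library's Ccl5. Cells with at least 5 UMIs summed over T, NK and B cell markers were 0 and 2 of them in Hevin libraries and 2 and 0 in mCherry libraries. Those with at least 5 summed UMIs of the MHC class II gate genes were 1 and 3, and 5 and 4. Apoe stood at 23743 and 19086 CPM in these cells of Hevin libraries and 3452 and 1184 in those of mCherry libraries. P2ry12 stood at 367 and 403, and 1406 and 1125. Of cells with 5 or more Ccl5 UMIs, 10 of 14 and 10 of 21 were Apoe-high in Hevin libraries, and 1 of 12 and 0 of 6 in mCherry libraries. By contrast, the 1% of Apoe-high cells richest in Pf4 held 5.18% and 4.84% of the class's Pf4 in Hevin libraries.

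The genes whose pattern was most like that of a member were sought over 20 sums, 5 classes in each of 4 libraries, among 9317 genes, by Pearson's r of log2(CPM + 1). These sums share libraries and depth, so r is a description. Ccl8 was most like C4b (0.98), Cd209f (0.97) and Slc7a2 (0.96). Pf4 was most like Cmah, Msr1 and Reps2 (0.98, 0.98 and 0.97), and Ccl9 most like Ccl6, Abcc1 and Spcs3 (0.97, 0.94 and 0.94). Ccl12 was most like Sat1, Apoe and Lgals3bp (0.95, 0.94 and 0.94), and Cxcl16 most like AU020206, Apoc1 and Apobec1 (0.95, 0.93 and 0.92). Ccl7 was most like Siglec1, Ddx60 and Sdc4 (0.95, 0.94 and 0.94), and Ccl2 most like Atp2b1, Hacd4 and Rnf149 (0.95, 0.94 and 0.92). For Ccl3 these were Bcl2l11, B2m and Ctsz (0.94, 0.93 and 0.93), for Ccl4 Ganc, Leprotl1 and Clip2 (0.90, 0.88 and 0.88), and for Ccl5 Sirpb1b, Ank and Negr1 (0.83, 0.81 and 0.81).

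Of 26 other chemokine ligands in the tables, 18 could be tested over all kept cells, and 5 rose and 3 fell, where 6.85% of all genes rose and 4.3% fell, with a median log2 fold change of 0.12 against 0.00 over all genes. Ccl17 rose by 1.24 (edgeR adjusted p = 0.00473), the neutrophil attractants Cxcl2 and Ppbp by 2.95 (0.00717) and 2.24 (0.0091), and the interferon-induced Cxcl10 by 1.35 (0.0245), while Ccl6 fell by 0.72 (0.012) on the log2 scale. Cxcl2 rested on 82 and 46 UMIs in Hevin libraries and 9 and 10 in mCherry libraries. Among receptors and shedding enzymes, Ccr1, receptor of Ccl3, Ccl5 and Ccl9, rose by 0.77 (edgeR adjusted p = 0.00339), the decoy-like receptor Ccrl2 by 0.61 (0.0379) and the proteoglycan Sdc4 by 0.53 (0.00544). Of NF-kappa-B targets and cytokines, 9 of 15 rose and 1 fell, with a median of 0.50, among them Nfkbia by 0.95 (edgeR adjusted p = 0.00149), Nfkbiz by 0.99 (0.00709) and Cd83 by 0.69 (0.00309). All 12 interferon-response genes tested rose, with a median of 1.16, and 2 of 14 dissociation-induced genes did, with a median of 0.15.

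Within microglia-like and within border-macrophage-like cells none of these lists had a gene past the edgeR threshold. The median of the 12 interferon-response genes was 0.56 in microglia-like cells and 0.19 in border-macrophage-like cells. Within Apoe-high cells it was -1.19 against 0.147 over all genes, with Bst2 higher by 0.70 (edgeR adjusted p = 0.00153) and Isg15 and Ifit3 lower, by -1.23 (0.017) and -1.64 (0.0188). In the same cells Cxcl10 fell by 3.45 (edgeR adjusted p = 2.71e-06), Ccl6 by 1.31 (0.00656) and Ccr2 by 3.41 (0.00128), while Ccr1 rose by 0.82 (0.0248), on the small mCherry set. The Ccr2 value rests on mCherry replicate 1, since mCherry replicate 2 had no Ccr2 UMI in these cells. In Apoe-high against microglia-like cells, 10 of 15 NF-kappa-B genes were higher and 3 lower, and 12 of 12 interferon-response genes were higher, with medians of 0.78 and 2.08, where 20% of all genes were higher. In Apoe-high against border-macrophage-like cells, 14 of 15 NF-kappa-B genes were higher, where 22.7% of all genes were, with a median of 1.15, while 2 interferon-response genes were higher and 4 lower, with a median of 0.06. Ccr1 was higher by a log2 difference of 1.10 in Apoe-high than in microglia-like cells (edgeR adjusted p = 4.79e-09), and Cx3cr1 was lower there by -0.88 (edgeR adjusted p = 3.47e-08).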

How the data were processed

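Single-cell RNA of 4 libraries was counted by PIPseq. The deposited matrices hold UMI counts per gene and barcode, made by the authors. Their genome build is mm10, per the submitters' processing notes, while the sources used here do not name the aligner or counter, nor how strand and cell calling were handled.

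Barcodes with at least 500 UMIs, 300 genes and at most 10% mitochondrial UMIs were kept (202 and 41 removed in Hevin libraries, 44 and 28 in mCherry libraries). No doublet caller was run, and leaving out the 5% of barcodes with most UMIs was an alternative. Cells were gated by marker UMIs per 10000, at 60 or more for microglia-like, 50 for border-macrophage-like, 150 for Apoe-high (with border markers under 30), 100 for MHC class II high and 40 for endothelial-like cells. Microglia-like cells also had border markers under 30 and Apoe and Ms4a7 under 150. Border-macrophage-like and Apoe-high cells had microglial markers under 60. These bounds were set after seeing the data, and the stricter gates raised each class's own lower bound 2 times. Cells that passed no gate or more than 1 stayed ungated. They were 13.1% and 9.21% of kept cells in Hevin libraries and 4.62% and 4.30% in mCherry libraries. The members, marker lists and gene lists were chosen with earlier results of these data known. All 10 members are named. A gene of the receptor list is not reported here. Of the other lists, up to 5 genes of smallest adjusted p are named per comparison, and 3 genes most like each member among those with at least 10 CPM.

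Counts were summed per library or per library and class, and tested with edgeR 4.0.16 (quasi-likelihood, TMM, filterByExpr, R 4.3.3, Benjamini-Hochberg over all genes tested, threshold 0.05). Class comparisons had the library as a block. DESeq2 1.42.0, other scalings and filters, a minimum of 3000 UMIs leaving out each library and, added after seeing the data, leaving out the cell richest in a member were alternatives. The scripts were checked on simulated data. Totals of 49781430 to 67832685 UMIs per library set the precision, which is least for members with few UMIs in a class. Levels are CPM within the library or class and are not compared between genes.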

Additional observations from a re-analysis of the deposited data

Results flagged for a closer look

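The Hevin effect, Hevin over mCherry on the log2 scale, differed between MHC class II high and Apoe-high cells for Ccl12, where it was 2.31 and -0.84 (difference 3.20, edgeR adjusted p = 3.86e-10). A single cell held 236 of the 493 Ccl12 UMIs of the Apoe-high cells of mCherry replicate 1, and without the richest cells the Apoe-high value was -0.21 (edgeR adjusted p = 0.689) and the difference 2.49 (4.9e-07). Taking off 1 cell weighs more on the 52 and 27 Apoe-high cells of mCherry libraries than on the 9382 and 5187 of Hevin libraries. In MHC class II high cells of mCherry libraries Ccl12 stood at 0.863 and 1.02 times the level of endothelial-like cells. For Ccl9 it was 0.05 in MHC class II high cells and -1.36 in Apoe-high cells (difference 1.48, edgeR adjusted p = 0.045), a difference that did not pass without the richest cells (1.33, edgeR adjusted p = 0.135). Both were singled out because the same contrast gave unlike values in 2 classes, after their values were seen. Groups of 2 libraries are too small for a check of samples that stand apart.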

How the results depend on the processing

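Over all kept cells 6 or 7 members passed under each setting that kept all 4 libraries (7 under a replicate block). The exception was outside the Apoe-high gate, where 3 did. Fits with a library left out leave 1 library in a group, so calls between Hevin and mCherry libraries are not counted from them. The Ccl8 value changed sign with the Hevin library used, from -1.23 to 0.46 over the leave-one-out fits in all kept cells and from -1.62 to 0.74 in border-macrophage-like cells (0.46 and 0.74 without Hevin replicate 1), and Ccl4 in Apoe-high over microglia-like cells was 0.36 under stricter gates. The share of all genes passing is not given for most settings, so a change in these counts is not read as a result about the ligands. Within microglia-like cells the main count of 0 (0 of 16982 genes) was 3 with DESeq2 (112 of 15414 genes). It was 4 with no filter and 4 with a replicate block. The border-macrophage-like count of 1 was 3 with no filter and 4 with a replicate block. The Apoe-high count of 4 was 2 with RLE size factors and 2 at a mean of at least 10 CPM. It was 2 without the 5% of barcodes with most UMIs, 2 without the richest cells and 4 with a replicate block. Under stricter gates it could not be fitted. The MHC class II high count of 3 (47 of 9054 genes) was 1 with DESeq2 (70 of 2104 genes). It was 5 with no filter, 1 without the top 5% and 4 with a replicate block. The endothelial-like count of 1 was 4 with no filter, 4 with a replicate block and 0 without the top 5%. For the interaction of border-macrophage-like with microglia-like cells the count of 0 was 1 with total counts, 3 with no filter and 1 at 3000 UMIs. For the interaction of MHC class II high with Apoe-high cells the count of 2 was 1 without the richest cells. Of all genes 30 of 8905 passed there, against 31 of 8908 in the main fit. Counts between classes stayed within 1.5 times under each setting tried. Without thinning, the mean share of cells with a UMI was 88.7% (thinned 69.4%) for Pf4, 71.2% (49.7%) for Ccl12 and 53.9% (25.1%) for Cxcl16 in Apoe-high cells, 35.1% (18.7%) for Ccl8 in border-macrophage-like cells and 42.3% (18.6%) for Ccl9 in microglia-like cells. Library differences of equal number correlated at 0.357 over 19119 genes, but 2 pairs cannot show that replicate numbers pair the libraries. The median log2 fold change of all genes over all kept cells was 0.00, and -0.115 under total-count scaling. In Apoe-high cells it was 0.147, and 0.04 under total-count scaling, -0.68 with DESeq2, 1.59 with no filter and -0.01 to 0.67 with a library left out. Under total-count scaling it was -0.22 for Apoe-high over border-macrophage-like cells and 0.12 for border-macrophage-like over microglia-like cells. The cause of these changes was not tested. The mCherry side of the Apoe-high class holds 52 and 27 cells.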
